A study of Saccharomyces cerevisiae with 6 samples.

Results

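The phosphate-regulated PHO genes of budding yeast were followed in cells with mutant histone H3 and in cells with wild-type H3. The set comprised 10 genes: the acid phosphatases PHO5, PHO11 and PHO12, the alkaline phosphatase PHO8, the phosphate transporters PHO84 and PHO89, the phosphate-response genes SPL2 and VTC3, and the regulators PHO4 and PHO81. A probe set, a group of array probes read as 1 value, belonged to the set when its annotation listed these genes and no other. This gave 9 probe sets of the 9335 in the table, because PHO11 and PHO12 shared 1. The array thus gave no separate value for either of that pair.

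Total RNA was measured on 6 Affymetrix arrays, 3 of H3 K4,36,79R mutant cells and 3 of wild-type H3 cells (Saccharomyces cerevisiae). In the mutant H3, arginine replaces the lysines at positions 4, 36 and 79. Both groups were moved from selective galactose medium to selective glucose medium for 6 h and harvested at an optical density of 0.5 to 0.7. According to the series design, glucose shuts off wild-type H3, so that mutant H3 becomes the only source of the protein, and replicates are separate cultures. The remaining genotype of each strain, the plasmids and the phosphate content of the media were not given in the sources used here. Any such difference between the strains cannot be told apart from the replaced lysines.

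When phosphate is plentiful, the cyclin Pho80 and the kinase Pho85 phosphorylate the transcription factor Pho4, which is then kept out of the nucleus. When phosphate is scarce, Pho81 inhibits this kinase, and Pho4, together with Pho2, switches on genes that release, import and store phosphate. The PHO5 promoter is a classical model of chromatin control, since positioned nucleosomes cover it in the repressed state and are removed on activation. The replaced lysines are methylated in wild-type cells by Set1, Set2 and Dot1, and Set1 is known to bear on the repression of PHO5 and PHO84. The comparison asked how RNA levels of these genes in mutant cells relate to those in wild-type cells.

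Signals were scaled to a common trimmed mean of 500 on each array, and all signals below are on that scale. As deposited, the trimmed means were 110.0, 107.5 and 95.01 on the mutant arrays, against 123.8, 123.9 and 123.8 on the wild-type arrays. Correlations of log2 signals between arrays were 0.964 to 0.983 within the mutant and 0.985 to 0.989 within the wild type. The median SD of a probe set over replicates was 0.20 in the mutant and 0.13 in the wild type on the log2 scale. Of the 2 tested probe sets of the H3 genes HHT1 and HHT2, 1 was at 33.3% of its wild-type mean in the mutant and the other at 93.1%, and neither shows the substitutions.

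With every array scaled to the same trimmed mean, PHO84 and PHO5 rose in the mutant to 2.01 and 1.87 times their wild-type mean signal. No other member was called. PHO84 encodes the high-affinity phosphate transporter of the plasma membrane and PHO5 the main secreted acid phosphatase. PHO89, which encodes a second high-affinity transporter, and PHO4 had lower values in the mutant without passing the test. Calls rest on limma with an adjusted p under 0.05 over the 6808 probe sets whose mean signal reached 50. Of the 9 member probe sets, 8 passed this filter, and 2 of these were called higher. Over all tested probe sets 0.896% were called higher, and the members were chosen with earlier results of these data known. None of the 8 was called lower, against 1.35% of all tested. At an unadjusted p under 0.05 there were 2 higher members, PHO84 and PHO5, and 2 lower ones, PHO89 and PHO4. Over all tested, 10.7% were higher and 8.92% lower at that unadjusted threshold. In either direction, 2 of 8 were called, against 2.25% of all tested. The median difference, mutant minus wild type on log2(signal + 16), was 0.17 over the 8 probe sets and 0.018 over all tested. The differences of the 8 ran from -0.44 to 0.95.

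**Figure D1:**
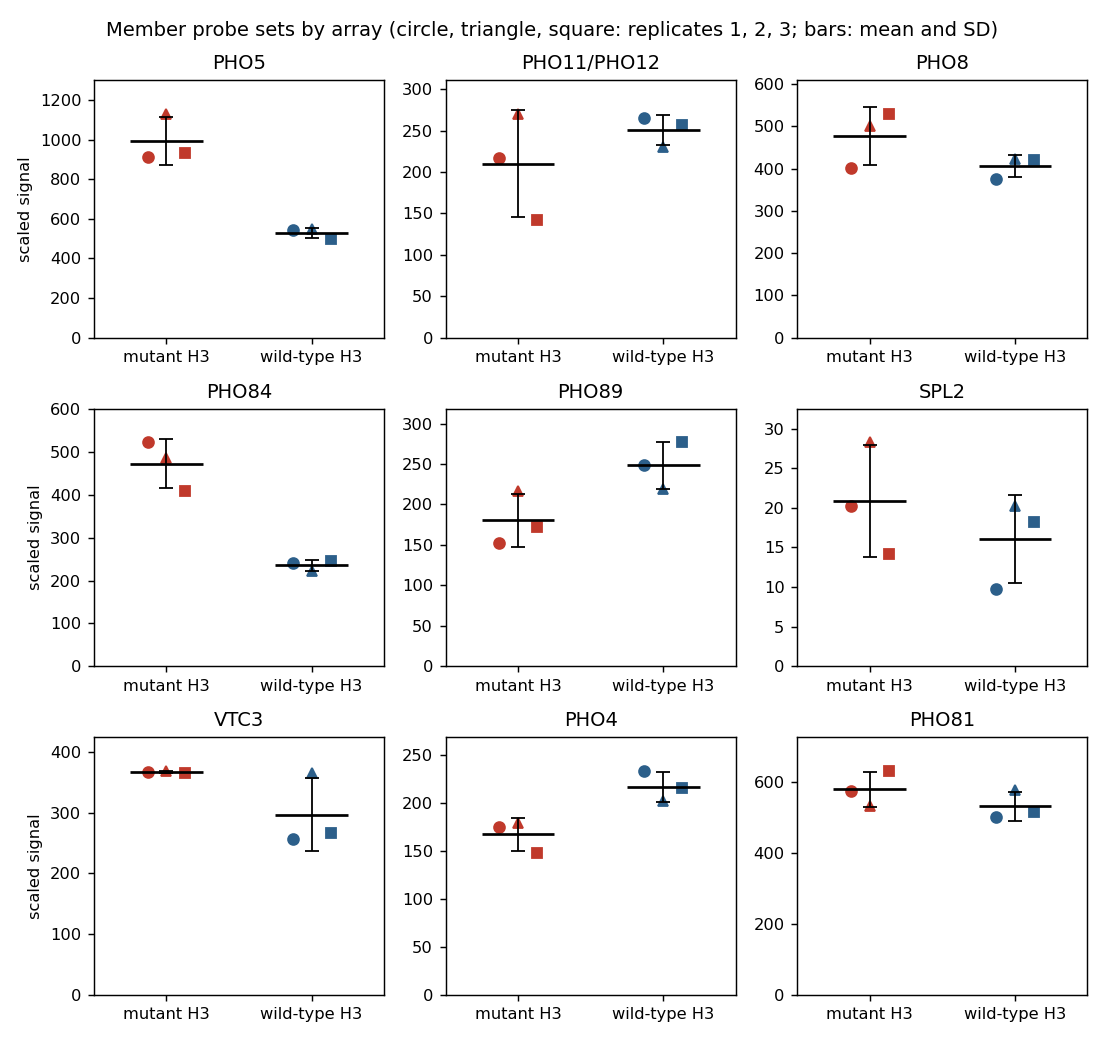
Scaled signal (y axis, linear, from 0) of each of the 9 member probe sets on the 3 mutant arrays (red) and the 3 wild-type arrays (blue), with the mean and SD in black. All mutant points of PHO84 and PHO5 lie above all wild-type points, all those of PHO89 and PHO4 lie below, and the groups overlap in the other 5 panels.

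The acid phosphatases release phosphate from organic compounds outside the cell. PHO5 had signals of 912.1, 1133 and 935.8 in the mutant, against 543.4, 546.9 and 500.4 in the wild type. Every mutant array was far above every wild-type array, and the wild-type arrays lay close together. The means were 993.7 ± 121.4 in the mutant and 530.2 ± 25.9 in the wild type (SD, n = 3 each), a ratio of 1.87. On the log2 scale PHO5 rose by 0.88 (SE 0.14, 95% interval 0.58 to 1.18, limma adjusted p = 0.0127). It was the 39th highest of the 6808 differences. In RNA from whole cultures, a change per cell and a change in the share of cells that express a gene cannot be told apart.

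PHO11 and PHO12, near-identical secreted acid phosphatases encoded close to chromosome ends, did not share this rise at their common probe set. Its signals were 217.6, 270.9 and 142.6 in the mutant, against 265.8, 230.9 and 256.8 in the wild type. The groups overlapped, since mutant replicate 2 had the highest value of all and mutant replicate 3 the lowest. The difference was -0.28 (SE 0.21, 95% interval -0.74 to 0.19, limma adjusted p = 0.493), and without mutant replicate 3 it was -0.043. Its SD among the mutant arrays, 0.43 on the log2 scale, exceeded that of 90.3% of tested probe sets. PHO5 and the PHO11/PHO12 pair therefore had intervals that do not meet, although the difference between the genes was not itself tested.

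PHO3, the acid phosphatase gene next to PHO5 and a close copy of it, is not controlled by phosphate but by thiamine. It had signals of 5473, 5774 and 6420 in the mutant, against 5605, 5090 and 4941 in the wild type. The groups overlapped, and the difference of 0.17 (SE 0.11, limma adjusted p = 0.418) was not called. The log2 ratio of the PHO5 signal to the PHO3 signal on the same array, taken with no offset, is unchanged by any 1 factor that multiplies a whole array. Relative to its wild-type mean this ratio was 0.71, 0.95 and 0.52 on the mutant arrays, against -0.070, 0.078 and -0.0075 on the wild-type arrays. Probe sequences were not used here, so a share of the PHO5 signal that comes from PHO3 RNA was not tested.

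PHO8 encodes the alkaline phosphatase of the vacuole, which Pho4 induces only weakly. Its signals were 401.0, 500.5 and 530.7 in the mutant and 376.5, 422.6 and 420.8 in the wild type. Mutant replicate 1 lay among the wild-type values. The difference was 0.22 (SE 0.15, 95% interval -0.11 to 0.55, limma adjusted p = 0.454), and with the intensities as deposited its sign turned (-0.028). The ratio of PHO5 to PHO8 on the same array was higher by 0.80, 0.80 and 0.43 on the mutant arrays than the wild-type mean, on the log2 scale, while the wild-type arrays lay at 0.15, -0.012 and -0.13.

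The transporters PHO84 and PHO89 had differences of opposite sign, of which only that of PHO84 was called. PHO84, the proton-coupled transporter, had signals of 523.3, 485.5 and 410.3 in the mutant, against 240.4, 221.2 and 245.9 in the wild type. Each mutant array was above each wild-type array. The means were 473.1 ± 57.5 in the mutant and 235.8 ± 12.99 in the wild type (SD, n = 3 each), a ratio of 2.01. On the log2 scale PHO84 rose by 0.95 (SE 0.14, 95% interval 0.63 to 1.27, limma adjusted p = 0.0113), the 26th highest of all tested differences.

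PHO89, the sodium-coupled transporter that works at alkaline pH, had signals of 152.6, 216.3 and 172.5 in the mutant, against 249.3, 218.8 and 277.0 in the wild type. The groups did not overlap, but mutant replicate 2 nearly reached wild-type replicate 2. Among the 8 tested member probe sets, 2 had all mutant values above all wild-type values, against 14.3% of all tested, and 2 had all below, against 11.5%. Together these are 4 of 8, against 25.8% of all tested. The PHO89 mean in the mutant was 72.7% of that in the wild type, with a difference of -0.44 (SE 0.17, 95% interval -0.80 to -0.066, limma adjusted p = 0.187). It passed the threshold under 1 of 16 alternatives, arrays weighted by their estimated quality (difference -0.58, limma adjusted p = 0.0417).

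Of the 4 within-array ratios computed, that of PHO84 to PHO89 had the largest mean shift, 1.47 on the log2 scale. Relative to its wild-type mean it was 1.85, 1.24 and 1.32 on the mutant arrays, against 0.017, 0.085 and -0.10 on the wild-type arrays, on the log2 scale. Every mutant array lay far above every wild-type array. These ratios were chosen after the members' values were seen and carry no test.

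SPL2 and VTC3 are induced by Pho4 when phosphate is low. Spl2 lowers phosphate uptake through the low-affinity transporters. Its probe set was too dim to be tested, with signals of 20.2, 28.3 and 14.1 in the mutant and 9.70, 20.2 and 18.2 in the wild type. The groups overlapped. With no filter on low signals the difference was 0.20 (SE 0.20, 95% interval -0.25 to 0.66, limma adjusted p = 0.653). No change of SPL2 was detected, and at such low signals the offset of 16 understates a change.

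Vtc3 is a subunit of the vacuolar complex that makes polyphosphate, the store of phosphate. VTC3 had signals of 367.0, 369.1 and 364.7 in the mutant, against 256.9, 366.1 and 267.3 in the wild type. The mutant arrays were nearly equal, whereas wild-type replicate 2 lay at the mutant level and the other two wild-type arrays lower. The difference was 0.31 (SE 0.16, 95% interval -0.045 to 0.66, limma adjusted p = 0.318), and it was 0.46 without wild-type replicate 2 (limma adjusted p = 0.174).

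Neither regulator was called. PHO4, which encodes the transcription factor of the pathway, had signals of 174.4, 179.1 and 147.4 in the mutant, against 233.1, 201.8 and 214.8 in the wild type. All mutant values were below all wild-type values. The mutant mean was 77.1% of that in the wild type, with a difference of -0.35 (SE 0.14, 95% interval -0.67 to -0.029, limma adjusted p = 0.219). Under 15 alternatives the difference ran from -0.58 to -0.27 and was never called, the lowest limma adjusted p being 0.0612 with the intensities as deposited.

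PHO81, which encodes the kinase inhibitor and is itself a Pho4 target, had signals of 574.6, 531.6 and 632.1 in the mutant and 501.0, 577.2 and 516.5 in the wild type. The groups overlapped. The difference was 0.12 (SE 0.13, 95% interval -0.18 to 0.42, limma adjusted p = 0.662), and its sign turned with the intensities as deposited (-0.13). Its whole interval lies below 0.95, the difference of PHO84. The within-array log2 ratio of PHO4 to PHO81, relative to its wild-type mean, was -0.42, -0.27 and -0.81 on the mutant arrays, against 0.19, -0.22 and 0.030 on the wild-type arrays.

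**Figure D2:**
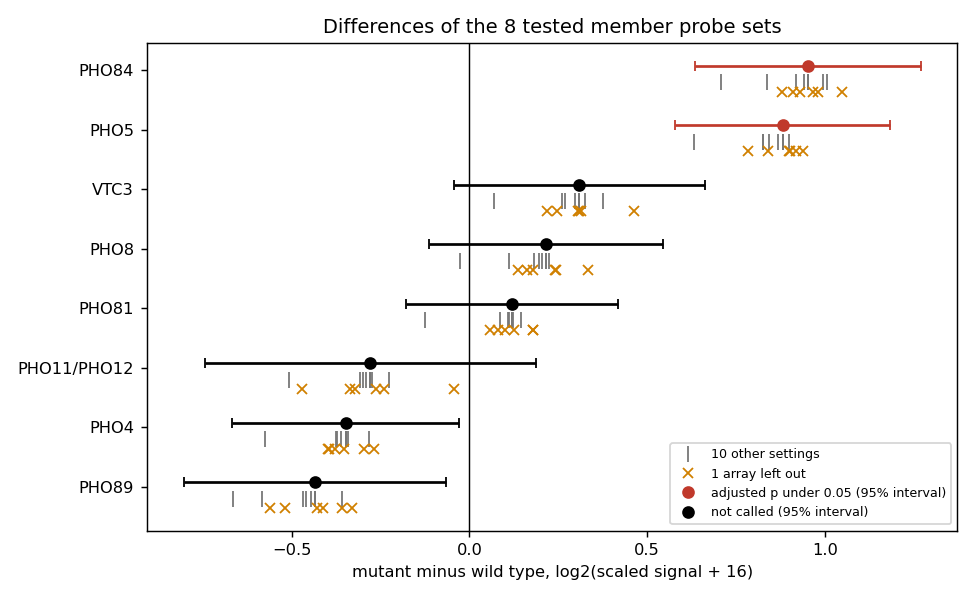
Differences between mutant and wild type (x axis, log2 of scaled signal plus 16) of the 8 tested member probe sets with 95% intervals, red where called. Grey ticks show the 10 other settings and orange crosses the fits with 1 array left out. PHO84 and PHO5 stay above 0.6 in all of them, and the PHO8 and PHO81 values cross 0 under 1 setting each.

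The rises of PHO84 and PHO5 kept their direction under all 16 alternatives, from 0.71 to 1.05 for PHO84 and from 0.63 to 0.94 for PHO5. Both calls were lost in some fits with 1 array left out. In those fits the differences were 0.88 to 0.97 for PHO84 and 0.84 to 0.90 for PHO5. Over all probe sets, 61 were called higher with all arrays. Without wild-type replicate 1, 2 or 3 the numbers were 16, 22 and 17. Without mutant replicate 1, 2 or 3 they were 13, 124 and 24. PHO84 was not called without mutant replicate 1 (limma adjusted p = 0.0589), wild-type replicate 1 (0.051) or wild-type replicate 2 (0.0563). PHO5 was not called without wild-type replicate 1 (limma adjusted p = 0.0552), wild-type replicate 2 (0.0551) or wild-type replicate 3 (0.0725). With the intensities as deposited, PHO84 differed by 0.71 and PHO5 by 0.63, and both were called at a limma adjusted p = 0.0399. The median of all tested differences was then -0.22 in place of 0.018.

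By the rule set for similar patterns, the log2 values of each probe set were centred on their mean over the 6 arrays. The root mean square distance was then taken to 5631 single-gene probe sets. Closest to PHO84 were RDN25-1, a ribosomal RNA gene (0.12), DAK2, a dihydroxyacetone kinase gene (0.12), the maltose transporter gene MAL11 (0.13) and the S-adenosylmethionine permease gene SAM3 (0.15). Closest to PHO5 were MET1, of sulphite reduction (0.064), SAM3 (0.066), MAL11 (0.070) and ARG1, of arginine synthesis (0.083). In each of these, all mutant values lay above all wild-type values, which follows from measuring likeness to genes that rose. PHO84 and PHO5 shared MAL11 and SAM3 among their 4 nearest.

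Other genes of the phosphate pathway were taken by role, with earlier results of these data known. Of 37 listed genes, 32 had a tested single-gene probe set, with 38 tested probe sets in all. SIW14 was the only one called higher, which is 2.63% of the 38 against 0.896% of all tested, and none was called lower. At an unadjusted limma p under 0.05 there were 3 higher and 3 lower of the 38, against 10.7% and 8.92% of all tested. The median difference was -0.020, against 0.018 over all tested.

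Within this list, 1 of the 17 tested probe sets for signalling and transport was called higher, 5.88% against 0.896% of all tested. SIW14 encodes a phosphatase acting on inositol pyrophosphates, the small molecules that report phosphate supply. Its signals were 1233, 1436 and 1295 in the mutant, against 866.6, 904.5 and 830.3 in the wild type. The groups were far apart, and SIW14 rose by 0.60 (SE 0.12, limma adjusted p = 0.0404). The call was lost under 9 of 16 alternatives. With 1 array left out its adjusted p was 0.0794 (mutant replicate 1), 0.0829 (mutant replicate 3), 0.167, 0.105 and 0.182 (wild-type replicates 1, 2 and 3). VIP1, which encodes an inositol pyrophosphate kinase, had signals of 302.4, 364.3 and 351.8 in the mutant, against 235.1, 234.1 and 201.5 in the wild type at 1 probe set. That difference of 0.57 (limma adjusted p = 0.0747) was not called, and the other 2 tested probe sets of VIP1 gave 0.36 and 0.075. The probe sets of this gene thus disagree in size.

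The core of the signalling pathway showed no call. PHO80, the cyclin gene, had a mean of 149.1 ± 8.88 in the mutant and 147.3 ± 29.5 in the wild type (SD, n = 3 each). PHO85, the kinase gene, had 456.9 ± 137.4 in the mutant and 545.6 ± 37.3 in the wild type. PHO2, the partner of Pho4, had 94.0 ± 19.2 in the mutant and 89.7 ± 9.74 in the wild type. The differences were 0.030 for PHO80, -0.29 for PHO85 and 0.047 for PHO2, with limma adjusted p of 0.939, 0.467 and 0.912 in that order. The PHO85 difference was -0.071 with mutant replicate 3 left out and -0.50 with mutant replicate 2 left out, and was called in neither case. The signs for PHO80 and PHO2 turned with the intensities as deposited.

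None of the 21 tested probe sets for targets and polyphosphate genes was called by limma, against 2.25% of all tested in either direction. At an unadjusted p under 0.05, 1 was higher and 3 were lower, against 10.7% and 8.92% of all tested. Closest to a call was PHM7, a membrane protein gene induced by low phosphate, with 86.8, 82.1 and 91.3 in the mutant against 123.2, 128.4 and 136.9 in the wild type. All mutant values were below all wild-type values (difference -0.50, limma adjusted p = 0.1). PHM7 was called lower with the intensities as deposited (difference -0.71, limma adjusted p = 0.0226). In that setting the median of all tested differences was -0.22, and 370 probe sets were called lower, against 92 in the main fit.

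The partners of Vtc3 in the polyphosphate complex were not called. VTC1 differed by -0.0097 and VTC2 by -0.28 (limma adjusted p = 0.969 and 0.405). VTC4, the catalytic subunit, had 2 probe sets with differences of 0.0083 and -0.13. VTC5 had 4 probe sets with differences of -0.50, -0.25, -0.023 and -0.0034, and the lowest adjusted p was 0.145. Signs of the values near 0 turned with the setting for VTC1, VTC4 and VTC5.

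**Figure D3:**
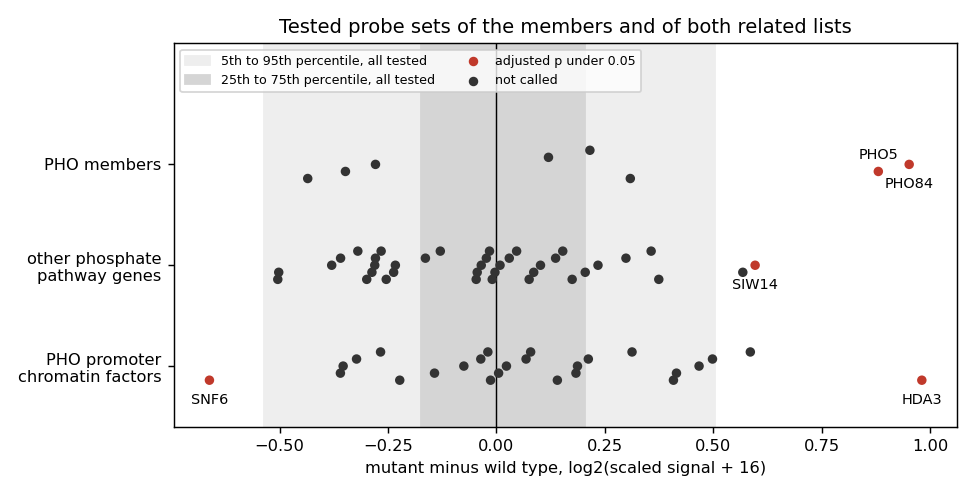
Differences (x axis, log2 of scaled signal plus 16) of the tested probe sets of the PHO members, of the other phosphate pathway genes and of the chromatin factors known from PHO promoters, 1 point each, red where called. The grey bands hold the central part of all 6808 tested probe sets. Of the called points, PHO84, PHO5, HDA3 and SIW14 lie to the right of the bands and SNF6 to the left, and 1 probe set each of VIP1 and SPT7, not called, also lies to the right.

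A further list, also drawn up with earlier results of these data known, held genes for chromatin proteins with a known role at the PHO5, PHO8 or PHO84 promoters. Of its 26 tested probe sets, 1 was called higher and 1 lower, 3.85% each, against 0.896% and 1.35% of all tested. SNF6, which encodes a subunit of the SWI/SNF remodelling complex, had signals of 301.2, 252.7 and 271.8 in the mutant, against 461.4, 404.8 and 467.6 in the wild type. It fell by 0.66 (SE 0.14, limma adjusted p = 0.0408). HDA3, of the Hda1 deacetylase complex known from PHO84 repression, had 108.6, 110.8 and 141.4 in the mutant, against 46.9, 70.2 and 43.6 in the wild type. The groups did not overlap in either gene, and HDA3 rose by 0.98 (SE 0.19, limma adjusted p = 0.0313). Both calls were lost under several alternatives, 6 of 16 for SNF6 and 5 of 15 for HDA3. The adjusted p of SNF6 was 0.0794 without mutant replicate 1, 0.0881 without mutant replicate 3, and 0.18, 0.0841 and 0.182 with wild-type replicate 1, 2 or 3 omitted. That of HDA3 was 0.0994 without mutant replicate 1, 0.102 without mutant replicate 3, and 0.121 and 0.129 with wild-type replicate 1 or 3 omitted. HDA3 is dim, with wild-type replicates 1 and 3 below the signal minimum of 50. Its difference was 1.17 with an offset of 1 and 0.65 with an offset of 64. HDA1, of the same complex, had means of 45.9 in the mutant and 46.2 in the wild type. It was too dim to be tested, as were SET2, ADA2 and EPL1.

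SNF2, the ATPase gene of the same complex as SNF6, had signals of 1018, 1276 and 949.5 in the mutant, against 763.6, 790.7 and 861.8 in the wild type. Unlike SNF6, its mutant values were all above its wild-type values, but the difference of 0.41 was not called (limma adjusted p = 0.166). ESA1, which encodes a histone acetyltransferase, had 216.8, 245.8 and 305.7 in the mutant, against 174.1, 201.0 and 152.7 in the wild type. This difference of 0.50 was not called either (limma adjusted p = 0.148).

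**Figure D4:**
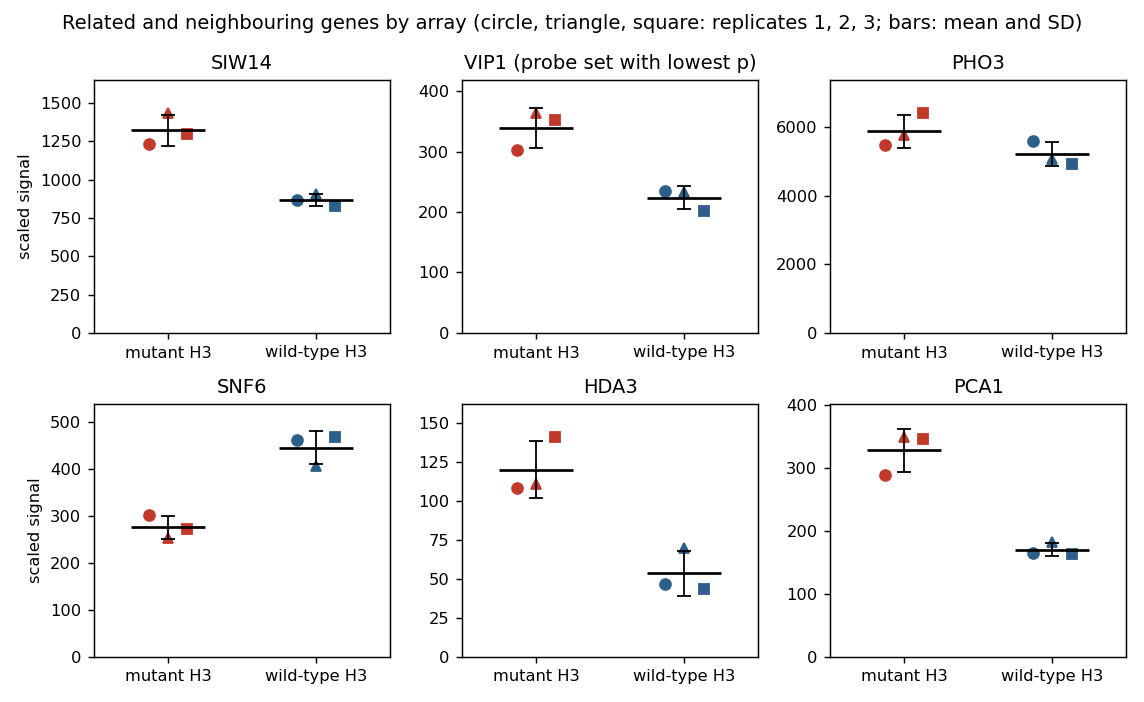
Scaled signal (y axis, linear, from 0) of 6 related or neighbouring genes on the 3 mutant arrays (red) and the 3 wild-type arrays (blue), with the mean and SD in black. SIW14, VIP1, HDA3 and PCA1 have all mutant points above the wild-type points, SNF6 has all below, and the groups overlap for PHO3. The VIP1 panel shows its tested probe set with the lowest p, which was not called. At the other tested probe sets of VIP1 the groups overlap.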

How the data were processed

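The table as deposited gives linear intensities, 1 per probe set, produced with MAS5 per the submitters' processing notes (no version stated there) from biotin-labelled cRNA made of about 20 ug of total RNA. What lowered the level of the mutant columns is not given either and was not tested. The 60 control probe sets were removed, and signals were multiplied by 1 factor per array that sets the 2% trimmed mean to 500. The factors were 4.55, 4.65 and 5.26 on the mutant arrays and 4.04 on each wild-type array. This scaling thus undoes any lowering of a mutant column by 1 common factor, whatever its origin. The test was limma 3.58.1 in R 4.3.3 (lmFit, eBayes with an intensity trend) on log2(signal + 16), 3 mutant against 3 wild-type arrays, on 6808 probe sets with a mean signal of at least 50, with Benjamini-Hochberg adjustment over all of them. The offset understates changes of dim probe sets, and having few arrays limits the precision (median SE 0.16 over all differences). Detection calls were not used. The fit was also run on simulated data with normal noise of equal spread in both groups, unlike these arrays. No result here rests on that run.

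Groups and replicate numbers came from the titles. Probe sets were named from a platform annotation, updated through gene IDs to assembly R64, which matched all 6832 annotated probe sets. Members and lists were chosen with earlier results of these data known. Named genes were all members, every called probe set and the 4 lowest adjusted p of each list, and PHO3, PHO2, PHO80, PHO85 and the VTC genes. Of the pathway list, PHO88 and ENA1 had no probe set of their own in the annotation used, and PHM6, CTF19 and PHO92 were below the signal filter, as were 3 of the 6 VIP1 probe sets. The planned promoter motif and protein comparisons were not analysed here. As alternatives, 3 further scalings were tried, as well as an offset of 1 or 64, a signal minimum of 200 or none at all, eBayes without trend, array weights, a replicate block and the omission of each array in turn.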

Additional observations from a re-analysis of the deposited data

How the results depend on the processing

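Over the 8 tested member probe sets, 118 of the alternative values kept their direction and side of the threshold, 6 lost a call, 1 gained one and 2 changed sign. The members called higher numbered 2 under every setting with all 6 arrays and 0 to 2 with an array left out: 1 when mutant replicate 1 or wild-type replicate 3 was omitted, and 0 when wild-type replicate 1 or 2 was. Members called lower numbered 0, apart from 1 (PHO89) with array weights.

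Pathway probe sets called higher numbered 0 with the intensities as deposited, median centring, no filter or no trend, 2 with array weights, and 0 to 1 with an array left out. Those called lower numbered 1 as deposited. Chromatin factors called higher numbered 0 with no filter. They also numbered 0 with a filter at 200, which took HDA3 (mean signal 86.9) out of the test. Chromatin factors called lower numbered 0 with no filter. With an array left out, each count was 0 to 1. Over all probe sets, 61 were higher and 92 lower. These counts were 31 and 370 as deposited, 33 and 54 with no filter, 184 and 206 with array weights, and 13 to 124 and 23 to 140 with an array left out, and a filter at 200 gave 57 lower.

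Deviations of same-numbered mutant and wild-type arrays had correlations of 0.13, 0.16 and 0.042. Differently numbered arrays were not compared in this way, so these values do not settle whether the numbers mark pairs. The main fit did not take them as pairs. The replicate block gave 108 higher and 147 lower probe sets and left 2 members called higher and 0 lower (PHO84 adjusted p = 0.00978, PHO5 0.00958).

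As deposited, the signs of differences near 0 turned for PHO8 (-0.028), PHO81 (-0.13), PHO3 (-0.077), PHO2 (-0.17), PHO80 (-0.20), VIP1 at its brightest probe set (-0.17), VTC4 (-0.24), TUB3 (-0.17) and GTR1 (-0.040). With quantile normalization they turned for VTC4 (-0.042), VTC1 (0.0037) and MAL33 (0.021), with median centring for VTC4 (-0.0037), with an offset of 64 for VTC5 (0.0028), and with array weights for VTC5 (0.091) and PHO2 (-0.15). Leaving out 1 array at a time, differences near 0 ran from -0.072 to 0.053 for VTC4, from -0.43 to 0.028 and from -0.14 to 0.22 for the VTC5 probe sets that differed by -0.25 and -0.0034, from -0.17 to 0.13 for the one that differed by -0.023, from -0.049 to 0.052 for VTC1, from -0.035 to 0.20 for PHO2, from -0.074 to 0.17 for PHO80, from -0.070 to 0.36 for GTR1 and from -0.15 to 0.067 for MAL33. The motif alternative was not run.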

Other observations

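The genes next to the members were looked up after the members' values had been seen, taking on each side the nearest annotated gene with a tested single-gene probe set. These were 19 genes with 24 probe sets, of which 3 were called, against 2.25% of all tested. PCA1, a metal-transporting ATPase gene beside PHO89, had signals of 288.3, 348.9 and 345.3 in the mutant, against 164.0, 182.4 and 163.6 in the wild type. It rose by 0.88 (SE 0.14, limma adjusted p = 0.015), whereas PHO89 itself differed by -0.44. The PCA1 call was lost under 3 of 16 alternatives, with wild-type replicate 1, 2 or 3 left out (adjusted p = 0.0686, 0.0505 and 0.0756). MAL33, on the other side of PHO89, differed by -0.032 and was not called.

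Around PHO84, the nearest such genes were TUB3, an alpha-tubulin gene, and GTR1, a small GTPase gene once linked to phosphate transport. TUB3 had 1859, 2205 and 1934 in the mutant and 1951, 1798 and 1903 in the wild type, a difference of 0.082 (SE 0.12). GTR1 differed by 0.20 (SE 0.24). The groups overlapped in both genes, and neither was called.

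Beside PHO81, YHB1, a flavohaemoglobin gene, had signals of 1208, 1085 and 931.3 in the mutant, against 1820, 1627 and 1590 in the wild type, and fell by 0.64 (SE 0.14, limma adjusted p = 0.0459) at 1 probe set. Its other 2 tested probe sets differed by -0.57 and -0.39 and were not called, and the call was lost under 7 of 16 alternatives. Among these, the adjusted p was 0.075 and 0.103 with mutant replicate 1 or 3 left out, and 0.192, 0.115 and 0.14 with wild-type replicate 1, 2 or 3 left out. On the PHO4 side, CDC26, with 3 genes between, fell by 1.29 (SE 0.16, limma adjusted p = 0.00727), while PHO4 was not called.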
